A study of Mus musculus with 23 samples.

Results

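The 8 genes of immunoglobulin class switching and somatic hypermutation, namely Ung, Msh6, Exo1, Polh, Trp53bp1, Rif1, Batf and Nuggc, were followed through RNA sequencing of mouse spleen B cells with and without a guide RNA against Irf8. They were picked by symbol from the 11944 genes with values in either of the 2 deposited tables, 1 for naive and 1 for cultured cells. All 8 had values in the cultured table and 7 in the naive one, and Nuggc was analysed in cultured cells only. Levels are given as RPKM, reads scaled to the listed length of the gene and the depth of the library. Comparisons between genes therefore rest on the listed lengths. Of the 23 libraries, 12 came from naive B cells (CD11b-, F4/80-, Thy1.2-, B220+) in 2 arms of 3 WT and 3 KO each, with libraries lettered A to C. KO cells were Thy1.1+ and carried Irf8 guide 1 or guide 2 according to the arm, and WT cells were Thy1.1- with no guide. The other 11 libraries came from naive cells cultured for 72 hours with LPS (labelled as 20 mg/ml), 5 ng/ml of IL-5 and 20 ng/ml of IL-2, with guide 1 in the KO cells. These were activated B cells (B220+, GL7+, CD138-), 3 WT and 3 KO, and plasmablasts, whose cell type label reads plasma cell (B220+ or intermediate, CD138+), 2 WT and 3 KO, numbered m1 to m3. The labels do not say how the guide was delivered, whether a clone or pool of cells was used, or whether a letter or number marks 1 animal. As no control guide was analysed here, loss of Irf8, carriage of a guide and the Thy1.1 sort cannot be told apart in any KO comparison.

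Class switching and hypermutation both start with uracils made from cytosines in the immunoglobulin genes of activated B cells. UNG removes the uracil, and MSH6 takes part in recognising the U:G mismatch, after which the exonuclease EXO1 removes the strand around it and the error-prone DNA polymerase eta, encoded by Polh, can fill the gap. In class switching the lesions become double-strand breaks in switch regions, where 53BP1 (Trp53bp1) and its partner RIF1 protect the ends from resection before they are joined. BATF is an AP-1 family transcription factor that binds DNA together with IRF4 or IRF8 and is required for class switching, and Nuggc encodes a nuclear GTPase of germinal centre B cells, also called SLIP-GC.

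Reads assigned to genes, estimated from the steps between low values, numbered 14500000 to 22200000 per naive library and 4300000 to 26900000 in 10 of the cultured libraries. The other one, plasmablast KO library 3, held about 51000 reads and was left out of the fit. It gave between 1 read (Batf) and 10 reads (Trp53bp1) per member, and results with it are given where they change a call. Statements on ranges and overlap cover the libraries in the fit. In naive KO guide 1 library A 1405 genes were listed at 0, against 66 to 291 in the others. Naive WT library A of the guide 1 arm held 4.93 RPKM of Thy1 and was kept as labelled. The other naive WT libraries held 0 to 0.052 and the naive KO libraries 8.88 to 22.1. The 2 activated m3 libraries went against their labels. Their Thy1 level was 0.093 RPKM where the label read KO and 25.7 where it read WT, while the m1 and m2 libraries held 21.9 and 27.8 in KO and 0.013 and 0.055 in WT. Irf8 was at 92.4 in the m3 library labelled KO and 60.0 in that labelled WT, against 69.2 and 68.1 in KO m1 and m2 and 108 and 93.6 in WT m1 and m2. They were kept as labelled. Results with and without both are given for KO against WT in activated cells, and the stage comparisons include them unless stated. As a check of the sorted stages, 6 of 7 plasma cell markers rose and 5 of 7 B cell markers fell from activated WT cells to WT plasmablasts. In KO cells 4 of 7 rose and 5 of 7 fell. Sdc1, among the plasma cell markers that rose, encodes CD138, so its rise follows from the sort. Of other cell types, 2 of 8 T cell markers had values in the cultured table and 1 each of 9 macrophage, 7 natural killer, 6 dendritic and 7 erythroid markers. Of these Cd28 rose and Lck, Flt3 and Hbb-bt fell with stage, and their summed levels were at most 22.2 RPKM (dendritic, activated WT). Their part in the results was not tested. In bulk RNA, fewer cells of a type and less RNA per cell cannot be told apart.

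In activated B cells Batf was the most abundant of the 8 genes and Ung the least. Batf stood at 124 ± 28.7 RPKM (SD, n = 3) in the activated WT libraries, Msh6 at 50.6 ± 4.50, Nuggc at 12.4 ± 6.76 and Polh at 11.9 ± 1.05. Lower levels were those of Rif1 (7.15 ± 0.662), Exo1 (5.72 ± 0.592), Trp53bp1 (2.94 ± 0.758) and Ung (1.31 ± 0.144). Neighbours in that order did not overlap between libraries, except Nuggc and Polh, and Nuggc also overlapped Rif1. The order depends on the listed lengths, such as 19378 bases for Rif1 and 4336 for Polh. Their exons in GENCODE M21 cover 10504 and 5950 bases, and the order was not tested with other lengths. In the plasmablast WT libraries Nuggc led with 39.3 ± 3.67 (SD, n = 2), followed by Batf at 37.1 ± 5.91 and Msh6 at 31.4 ± 4.58, and the ranges of Batf overlapped those of both of the others. Rif1 and Exo1 also overlapped there, at 5.28 ± 0.771 and 5.75 ± 0.940. In the plasmablast KO libraries m1 and m2 the order of the first 2 was the reverse, with Batf at 37.5 and 39.6 and Nuggc at 33.9 and 34.1.

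Naive and cultured values come from tables made separately, so they are set side by side without a test. Every cultured library in the fit lay above every naive library for Msh6 (28.1 to 53.9 against 14.4 to 27.5 RPKM), Exo1 (5.08 to 6.55 against 0.006 to 1.11) and Polh (9.02 to 14.5 against 0.08 to 4.60). These are 3 of the 7 genes with values in both, and of the 10178 genes listed in both a share of 15.2% lay that way and 14% the opposite way. Ung, Rif1 and Batf overlapped between naive and cultured cells. Trp53bp1 was the member with lower levels in culture, at 1.34 to 3.74 against 3.62 to 8.60, with a small overlap. Markers of proliferation moved with the culture, since the summed level of 18 DNA replication genes was 126 to 220 RPKM in naive and 666 to 1090 in cultured libraries, and their part in these differences was not tested.

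**Figure D1:**
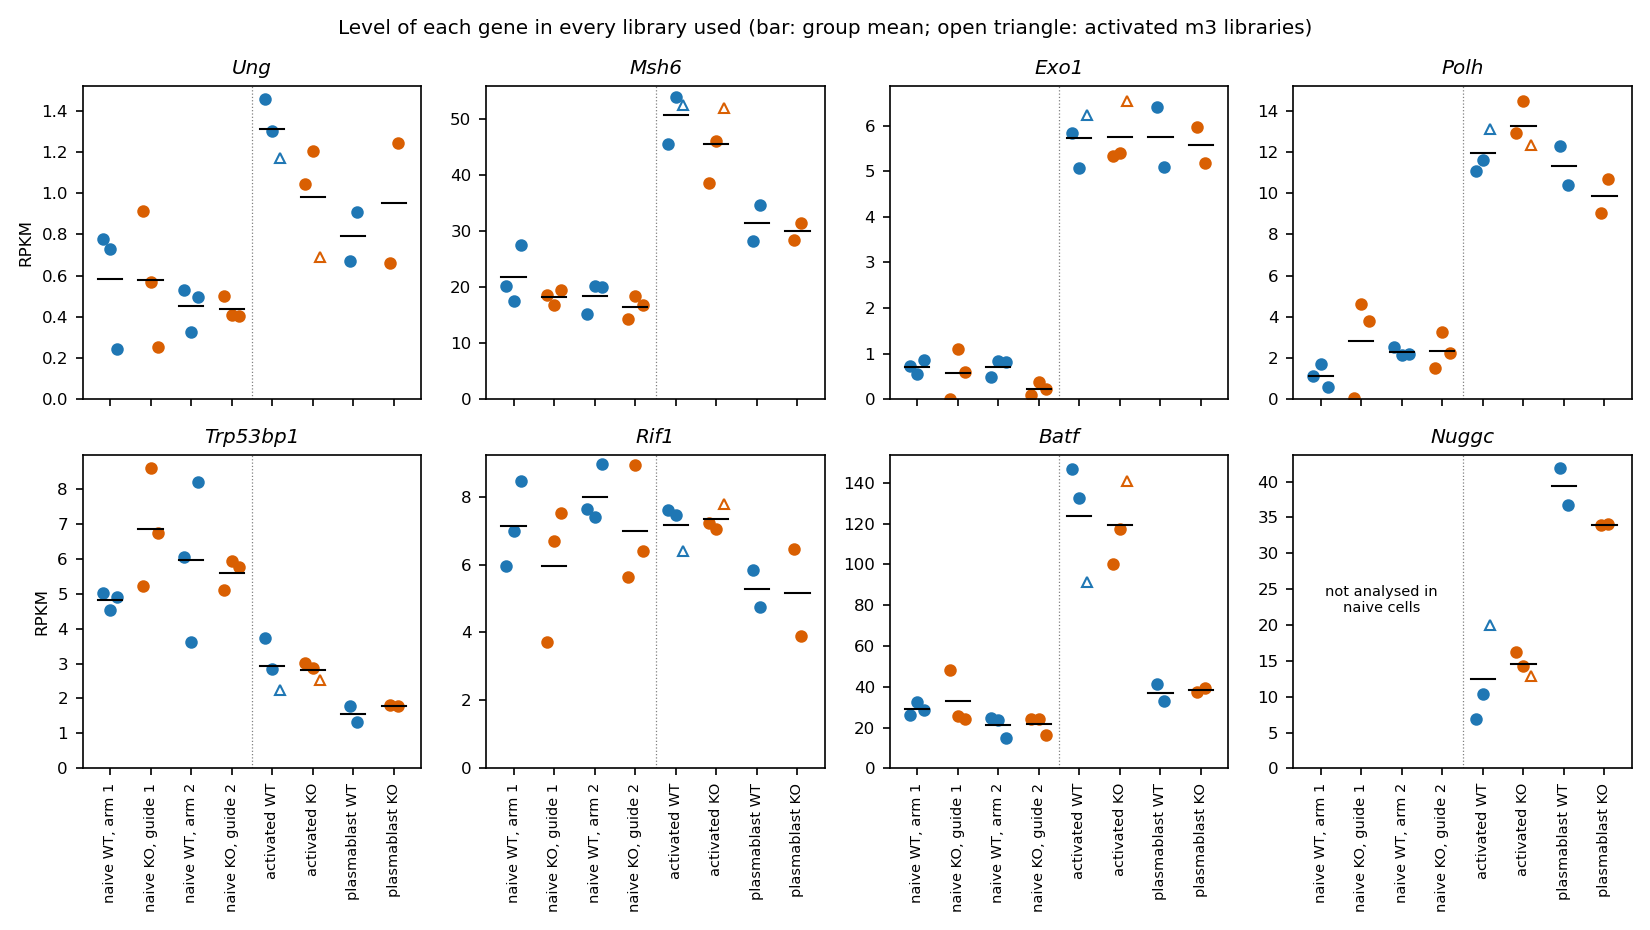
Level of each of the 8 genes (vertical axes, RPKM, scales differ) in every library used, by group. Points are libraries, blue for WT and orange for KO, bars are group means and open triangles are the activated m3 libraries, which go against their labels. Batf has its own highest levels in activated cells and Nuggc its own highest in plasmablasts, and Exo1 lies near 0 in naive cells.

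The comparison of plasmablasts with activated B cells asked which of these genes change as cells of the same culture acquire CD138. In WT cells Nuggc rose and Batf, Msh6 and Trp53bp1 fell, while Ung, Exo1, Polh and Rif1 did not pass the test. In KO cells Nuggc rose and Batf, Msh6 and Polh fell, while Ung, Exo1, Trp53bp1 and Rif1 did not pass. The test was limma's moderated two-sided test on log2(RPKM + 1) with Benjamini-Hochberg adjustment over all 9883 genes, and a gene was called at an adjusted p under 0.05. The 4 of 8 members called in WT stand beside 33.4% of all genes (12% higher and 21.4% lower), and the 4 of 8 in KO beside 30.7% (12.2% higher and 18.5% lower). Libraries of the stages did not overlap for 6 members in WT (1 higher, 5 lower) and 6 in KO (1 higher, 5 lower), beside 57.4% of the 10574 listed genes in WT (21.5% higher, 35.9% lower) and 56.3% in KO (21.8% higher, 34.5% lower). Where leaving out a library leaves 1 in its group, that library is assumed to vary like the other groups. The median difference of the 8 members was -0.37 in WT on the log2 scale, against -0.12 over all genes. That median over all genes moved to 0 when libraries were rescaled by their median ratio, so the differences in WT below are about 0.12 lower than on that scale. In KO the median was -0.42 for the members and -0.09 over all genes, and the latter moved to -0.01, a shift of 0.08. Replication markers moved the same way as Msh6, with 6 of 18 lower and 1 higher in WT and summed levels of 889 to 1010 RPKM in activated and 781 to 826 in plasmablast WT libraries. In KO 5 of 18 were lower and 1 higher, with sums of 740 to 1090 and 666 to 773 RPKM. Of 18 G2/M markers 1, Mki67, was higher in WT and none lower, while in KO 3 were lower (Bub1, Ccnb2 and Cenpe) and none higher. Without both activated m3 libraries 9 of 18 replication markers were lower in WT and 5 in KO, with 1 higher in each. In that fit 4 G2/M markers were higher and none lower in WT, and 1 was lower and none higher in KO. Members called then were 1 higher and 3 lower in WT and 1 higher and 4 lower in KO. Of all genes 46.3% and 33.6% were called there. The part of cell cycling in the members' differences was not tested.

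**Figure D2:**
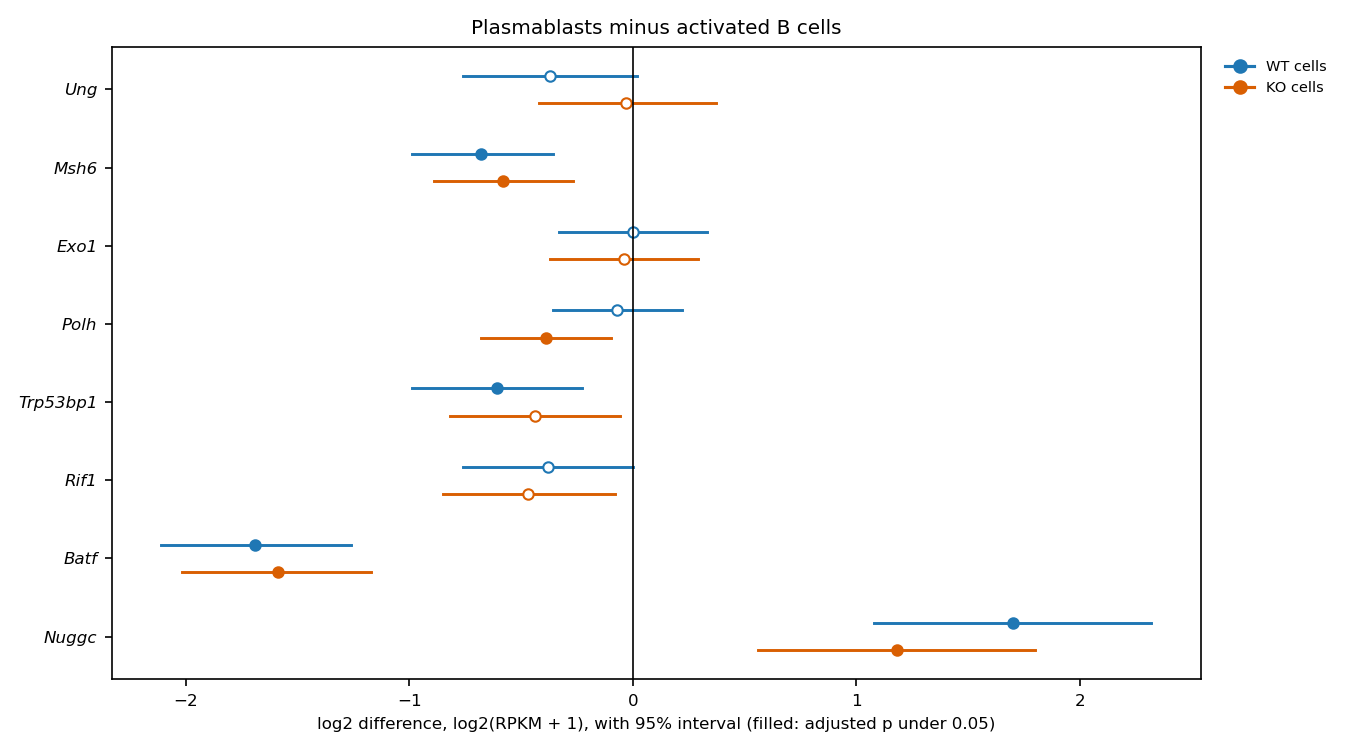
Difference between plasmablasts and activated B cells for each gene (horizontal axis, log2 scale of RPKM + 1) with its 95% interval, in WT (blue) and KO (orange) cells; filled points have an adjusted p under 0.05. Nuggc lies to the right in both genotypes and Batf to the left, and the intervals of Exo1 span 0 in both.

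Promoter sequences show what lies upstream of genes that moved with stage and of those that hold an IRF-type motif, and RefSeq entries on GRCm38.p6 were found for 5 of the 8 members (Batf, Msh6, Polh, Trp53bp1 and Ung). The 250 bases before each start were searched on both strands for the ETS-IRF composite motif GGAANNGAA, the interferon response motif GAAANNGAA, the AP-1 motif TGANTCA and the E2F motifs TTTGGCGC, TTTCCCGC, TTTCGCGC and TTTGCCGC. Of the 5, Polh held GGAANNGAA, beginning 32 bases before the start (6.99% of 32851 promoters hold it), and Trp53bp1 held GAAANNGAA on the other strand, beginning 109 bases before the start (7.13%). No AP-1 motif (6.75% of promoters) and no E2F motif (1.86% hold any) was in the 5 windows, Batf, the member with the largest fall, included. Capitals mark the matched bases, and each run is written 5′ to 3′ along the gene, on the minus strand for Polh at chr17:46202642-46202891 and Trp53bp1 at chr2:121271408-121271657 and on the plus strand for Batf at chr12:85686470-85686719. The Trp53bp1 entry belongs to a start inside the gene's span, whose far end lies at 121296354. So does the Ung entry on the plus strand, whose window ends at 114130434, past the start of the gene's span at 114130366.
Polh: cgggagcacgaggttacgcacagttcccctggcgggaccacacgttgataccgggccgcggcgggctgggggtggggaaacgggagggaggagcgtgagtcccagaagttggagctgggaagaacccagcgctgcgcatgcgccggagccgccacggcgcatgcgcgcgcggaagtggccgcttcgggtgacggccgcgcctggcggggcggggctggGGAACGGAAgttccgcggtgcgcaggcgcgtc
Trp53bp1: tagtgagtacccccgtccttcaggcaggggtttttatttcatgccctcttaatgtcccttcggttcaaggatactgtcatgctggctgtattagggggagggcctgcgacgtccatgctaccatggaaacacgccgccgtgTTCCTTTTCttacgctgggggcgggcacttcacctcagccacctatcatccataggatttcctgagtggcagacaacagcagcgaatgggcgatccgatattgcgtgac
Batf: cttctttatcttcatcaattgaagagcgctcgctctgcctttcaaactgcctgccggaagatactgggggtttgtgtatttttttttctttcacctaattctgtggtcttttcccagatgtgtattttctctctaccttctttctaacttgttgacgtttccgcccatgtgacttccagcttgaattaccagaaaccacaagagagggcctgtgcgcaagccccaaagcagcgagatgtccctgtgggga
A match describes letters and does not show binding, and neither gene was called between KO and WT in the fits with all libraries as labelled.

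Of the genes that act on the uracil and its mismatch, Msh6 fell from activated cells to plasmablasts in both genotypes. Msh6 (Entrez 17688, chromosome 17, 87975050 to 87990892 on GRCm38) was at 45.5, 53.9 and 52.5 RPKM in activated WT libraries m1 to m3 and at 28.1 and 34.6 in plasmablast WT m1 and m2. Among KO cells the activated libraries held 38.5, 46.0 and 51.9 and the plasmablasts 28.5 and 31.4. All plasmablast libraries lay below all activated ones, in each genotype. The log2 difference was -0.68 in WT (SE 0.14, 95% interval -0.99 to -0.36; adjusted p = 0.00402, limma) and -0.58 in KO (SE 0.14, interval -0.89 to -0.27; adjusted p = 0.0104, limma). The WT call was lost without plasmablast WT library 1 (adjusted p = 0.0516, limma) and with all 11 libraries (0.152), and the KO call without plasmablast KO library 1 (0.0927), on the rescaled values (0.0642) and with all 11 libraries (0.13).

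Of 11 further mismatch repair genes 1 fell in each genotype and none rose, a smaller share than the 21.4% and 18.5% of all genes that fell, and it was Pms1 in both (log2 difference -0.49, adjusted p = 0.0476 in WT and -0.57, adjusted p = 0.0275 in KO, limma).

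Ung and Exo1 showed no called difference between the stages. Ung (Entrez 22256, chromosome 5, 114130366 to 114139321) was at 1.46, 1.30 and 1.17 RPKM in activated WT m1 to m3 and at 0.670 and 0.909 in plasmablast WT. KO levels were 1.04, 1.21 and 0.691 in activated cells and 0.662 and 1.24 in plasmablasts. The WT groups did not overlap and the KO groups did. These values rest on 22 to 201 reads per library, the fewest of the 8 genes, and the log2 differences were -0.37 in WT (interval -0.76 to 0.02; adjusted p = 0.135, limma) and -0.03 in KO (-0.42 to 0.37; adjusted p = 0.923, limma). Near 1 RPKM the added 1 makes log2 differences smaller than the ratios.

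Exo1 (Entrez 26909, chromosome 1, 175880768 to 175911396) was at 5.85, 5.08 and 6.24 RPKM in activated WT and at 6.42 and 5.09 in plasmablast WT. The activated KO libraries stood at 5.33, 5.40 and 6.55 and the KO plasmablasts at 5.98 and 5.18. All 4 groups overlapped, with log2 differences of 0.00 in WT (interval -0.33 to 0.33; adjusted p = 0.991, limma) and -0.04 in KO (-0.37 to 0.29; adjusted p = 0.88, limma). These intervals leave room for a change of up to 0.37 on the log2 scale.

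Polh, the polymerase that fills gaps with errors and the gene with the GGAANNGAA match before its start, was called in KO but not in WT cells. Polh (Entrez 80905, chromosome 17, 46171355 to 46202641) was at 11.1, 11.6 and 13.1 RPKM in activated WT and at 12.3 and 10.4 in plasmablast WT, with overlap. The KO libraries held 12.9, 14.5 and 12.3 in activated cells and 9.02 and 10.7 in plasmablasts, with no overlap. The log2 difference was -0.39 in KO (SE 0.13, interval -0.68 to -0.10; adjusted p = 0.0422, limma) and -0.07 in WT (-0.36 to 0.22; adjusted p = 0.724, limma). The difference between these 2 values, -0.32 (interval -0.74 to 0.09), was itself not called (adjusted p = 1, limma). Without both activated m3 libraries the log2 difference of Polh was -0.44 in KO (adjusted p = 0.0217, limma) and 0 in WT (0.981). In that fit 33.6% of all genes were called in KO. The KO call was lost on the rescaled values (adjusted p = 0.105, limma), with all 11 libraries (0.171), and without activated KO library 1 (0.0618) or 2 (0.14), activated WT library 2 (0.0667), or plasmablast KO library 1 (0.273) or 2 (0.0708).

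The end-protection genes Trp53bp1 and Rif1 both stood lower in plasmablasts, and 1 of the 4 differences was called. Trp53bp1 (Entrez 27223, chromosome 2, 121194835 to 121296354) was at 3.74, 2.84 and 2.23 RPKM in activated WT and at 1.77 and 1.34 in plasmablast WT. Among KO cells the activated libraries held 3.03, 2.86 and 2.53 and the plasmablasts 1.81 and 1.78. Neither genotype showed overlap between the stages in the libraries of the fit, while plasmablast KO library 3, with 10 reads, gave 10.5. The log2 difference was -0.61 in WT (SE 0.18, interval -0.99 to -0.23; adjusted p = 0.0195, limma) and -0.44 in KO (-0.82 to -0.06; adjusted p = 0.0768, limma). The WT call was lost without activated WT library 1 (adjusted p = 0.078, limma) or 2 (0.0551), without plasmablast WT library 2 (0.153) and with all 11 libraries (0.762). The KO difference was called without activated WT library 3 (adjusted p = 0.0469, limma) and without both activated m3 libraries (-0.49; 0.037). Of the exon bases of Trp53bp1 15% overlap those of Tubgcp4, and the kit keeps no strand, so reads there cannot be assigned to 1 of the genes.

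Rif1 (Entrez 51869, chromosome 2, 52072815 to 52126769) was at 7.61, 7.46 and 6.39 RPKM in activated WT and at 5.83 and 4.74 in plasmablast WT. KO levels were 7.24, 7.04 and 7.78 in activated cells and 6.46 and 3.89 in plasmablasts. Libraries in the fit did not overlap between stages in either genotype. The log2 differences of -0.38 in WT (interval -0.76 to 0.00; adjusted p = 0.117, limma) and -0.47 in KO (-0.85 to -0.08; adjusted p = 0.0622, limma) were not called, and the KO one was called without plasmablast KO library 1 (-0.77; adjusted p = 0.0185, limma), a fit with 1 KO plasmablast library whose spread comes from the other groups.

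Batf showed the largest fall of the 8 genes from activated cells to plasmablasts in both genotypes. Batf (Entrez 53314, chromosome 12, 85686720 to 85709087) was at 147, 132 and 91.6 RPKM in activated WT m1 to m3 and at 41.3 and 32.9 in plasmablast WT. The activated KO libraries stood at 100.1, 117 and 141 and the KO plasmablasts at 37.5 and 39.6. The lowest activated library, the m3 library labelled WT, stood above every plasmablast library. The log2 difference was -1.69 in WT (SE 0.20, interval -2.11 to -1.26; adjusted p = 9.59e-05, limma) and -1.59 in KO (SE 0.20, interval -2.02 to -1.17; adjusted p = 0.00017, limma). Both calls held in each of the 16 alternatives run, with differences from -1.89 to -1.53 in WT and from -1.89 to -1.47 in KO. Plasmablast levels of 37.1 ± 5.91 in WT and 38.6 ± 1.49 in KO overlapped the naive range of 14.9 to 48.3.

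Nuggc was the member that rose. Nuggc (Entrez 100503545, chromosome 14, 65593499 to 65648444) was at 6.95, 10.3 and 20.0 RPKM in activated WT m1 to m3 and at 41.9 and 36.7 in plasmablast WT. The KO libraries held 16.2, 14.3 and 12.9 in activated cells and 33.9 and 34.1 in plasmablasts. Every plasmablast library in the fit stood above every activated one, the nearest being the m3 library labelled WT, while plasmablast KO library 3, with 3 reads, gave 18.8. The log2 difference was 1.70 in WT (SE 0.29, interval 1.08 to 2.32; adjusted p = 0.00102, limma) and 1.18 in KO (SE 0.29, interval 0.56 to 1.80; adjusted p = 0.00893, limma). The KO call was lost without plasmablast KO library 1 (adjusted p = 0.0594, limma) or 2 (0.0653). With all 11 libraries both were lost (adjusted p = 0.0717 in WT and 0.189 in KO, limma). Without both activated m3 libraries the differences were 2.08 in WT and 1.11 in KO (adjusted p = 4.02e-07 and 0.000126, limma), beside 46.3% and 33.6% of all genes called there.

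The stage difference was also compared between the genotypes for each gene. For the 8 members the KO difference minus the WT difference ran from -0.52 (Nuggc, interval -1.40 to 0.35) to 0.34 (Ung, interval -0.21 to 0.90) and none was called. Limma called 0 of 9883 genes in this comparison (0%), 113 had an unadjusted p under 0.05, and the smallest adjusted p was 1. Without both activated m3 libraries 3 genes were called (0.0304%), with no member among them. In that fit Nuggc stood at -0.98 (interval -1.44 to -0.52; adjusted p = 0.203, limma), Batf at 0.42 (0.04 to 0.81; 0.614) and Polh at -0.44 (-0.84 to -0.03; 0.624), intervals that leave out 0 before adjustment.

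Other genes of the pathway were taken from lists by role, with the activated m3 libraries kept as labelled. Their counts stand beside 21.4% of all genes lower and 12% higher in WT and 18.5% lower and 12.2% higher in KO. Of 12 cofactor genes of switching 6 fell in each genotype and 0 rose, including Rpa1, a subunit of the single-strand binding protein (-0.66 in WT, -0.62 in KO), and the chaperone gene Hsp90ab1 (-0.86 and -0.83). Of 9 further base excision repair genes 4 fell and 1 rose in WT and 2 fell in KO, with Xrcc1, a scaffold of single-strand break repair, at -0.58 and -0.81 and the endonuclease gene Apex1 at -1.19 and -1.10. None of 11 translesion synthesis genes was called in either genotype.

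Among 17 break signalling and end protection genes 3 fell in WT and 2 in KO, and none rose, shares no larger than those of all genes (21.4% and 18.5% lower). The kinase gene Atm fell most clearly, from 4.83 ± 1.02 to 0.958 ± 0.190 RPKM in WT (-1.56; adjusted p = 8.64e-05, limma) and from 4.82 ± 0.430 to 1.38 ± 0.322 in KO (-1.30; adjusted p = 0.000368, limma). Of 10 end-joining genes 2 fell and 1 rose in WT and 3 fell and 1 rose in KO, with the Ku70 gene Xrcc6 at -0.76 and -0.91. Of 18 transcription factor genes of switching 12 fell and 1 rose in WT and 10 fell and 1 rose in KO. Id3, an inhibitor of E proteins, fell (log2 difference -3.30 in WT and -2.84 in KO), as did Irf8 (-1.98 and -1.91) and Bach2, a repressor of plasma cell differentiation (-1.73 and -1.80). The gene that rose was Irf4, a partner of BATF, from 86.4 ± 17.8 to 126 ± 5.37 RPKM in WT (0.55, adjusted p = 0.0198, limma) and from 90.2 ± 8.61 to 138 ± 8.02 in KO (0.61, adjusted p = 0.0144, limma). Without both activated m3 libraries the Irf4 differences were 0.69 in WT and 0.53 in KO (adjusted p = 0.000753 and 0.00652, limma). Irf4 lost the WT call without activated WT library 1 (adjusted p = 0.0689, limma) or either plasmablast WT library (0.0657 and 0.126). It lost the KO call without either plasmablast KO library (0.0592 and 0.111), and both calls with all 11 libraries (0.747 and 0.968).

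In activated B cells the comparison of KO with WT asked whether the Irf8 guide went with a change in these genes. With all libraries as labelled, none of the 8 members was called, every one overlapped between the groups, and each had an adjusted p of 1. Limma called 0 of 9883 genes (0%), 45 had an unadjusted p under 0.05, and 3.23% of the 10574 listed genes did not overlap. The largest member differences were 0.32 for Nuggc (interval -0.23 to 0.88) and -0.23 for Ung (-0.58 to 0.12), and the intervals of all 8 lay between -0.58 and 0.88.

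Library by library, Batf and Nuggc changed order at m3, as Thy1 and Irf8 did. Among m1 and m2, Batf was at 100.1 and 117 RPKM in KO and 147 and 132 in WT, but 141 in the m3 library labelled KO and 91.6 in that labelled WT. Nuggc was higher in KO at m1 and m2 (16.2 and 14.3 against 6.95 and 10.3) and at m3 lower in the library labelled KO (12.9 against 20.0). In both genes the m3 libraries stood in the opposite order to m1 and m2. Polh and Rif1 also changed order at m3, by less, while Msh6 and Ung were lower in the library labelled KO at each number. Exo1 and Trp53bp1 had no single order at m1 and m2. The share of all genes that change order at m3 is not given here, so the order is not read as particular to these members.

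**Figure D3:**
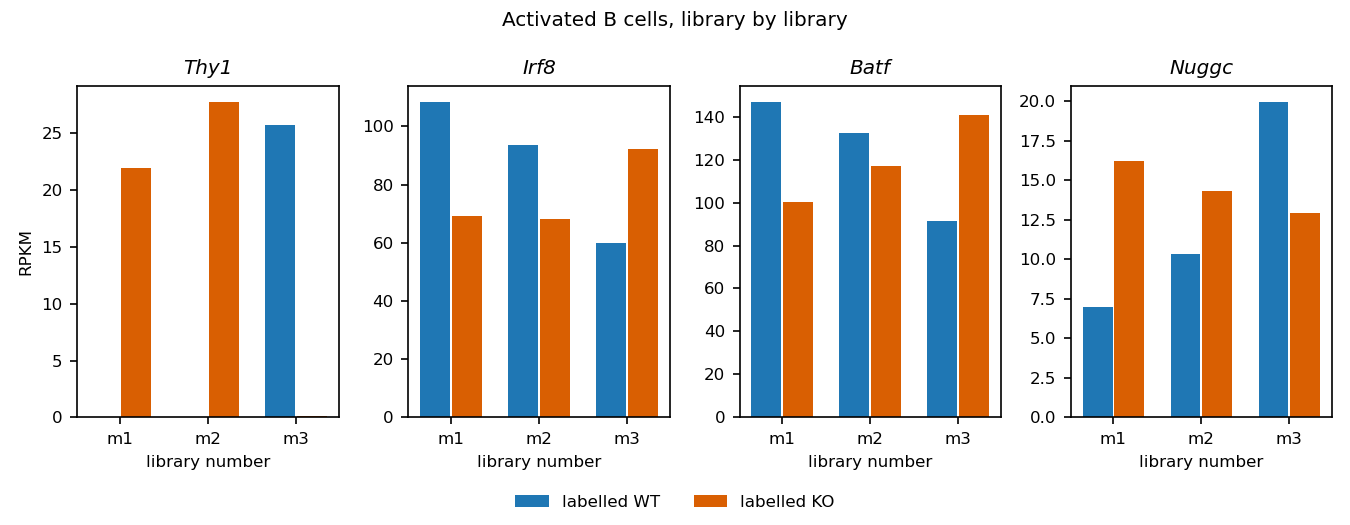
RPKM of Thy1, Irf8, Batf and Nuggc (vertical axes, scales differ) in each activated B cell library, as bars from 0, blue for libraries labelled WT and orange for those labelled KO. In all 4 genes the order of the 2 bars at m3 is the reverse of that at m1 and m2.

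Without both activated m3 libraries, which left 2 libraries a group, Nuggc was the 1 member of 8 called. Its log2 difference was 0.78 (SE 0.15, interval 0.45 to 1.10; adjusted p = 0.0398, limma), beside 70 of 9861 genes called (0.71%). This call was lost on rescaled values (adjusted p = 0.0571, limma) and when 1 more library was left out, be it activated KO 1 (0.432) or 2 (0.0713), activated WT 1 (0.47), or plasmablast KO 1 (0.0571) or 2 (0.0575). Each of these fits has 1 library in the group concerned, with the spread taken from the other groups. Batf stood at -0.36 (interval -0.63 to -0.09; adjusted p = 0.24, limma), Polh at 0.25 (-0.04 to 0.54; 0.488) and Msh6 at -0.23 (-0.52 to 0.06; 0.551), none called. Irf8 differed by -0.55 (adjusted p = 0.126, limma).

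In plasmablasts none of the 8 members was called between KO and WT, with differences from -0.20 (Nuggc, interval -0.88 to 0.48) to 0.14 (Trp53bp1, interval -0.29 to 0.56). Limma called 0 of 9883 genes (0%), 231 had an unadjusted p under 0.05, and the smallest adjusted p was 0.648. Irf8 RNA was thus not called either, at -0.10 (interval -0.65 to 0.45). It stood at 17.5 and 21.4 RPKM in KO and 24.6 and 17.6 in WT, with overlap. Nuggc was lower in both KO libraries (33.9 and 34.1 RPKM) than in both WT libraries (41.9 and 36.7), and Trp53bp1 was higher in both KO (1.81 and 1.78) than in WT (1.77 and 1.34). With 2 libraries a group, 27.9% of the 10574 listed genes did not overlap in this comparison (19.5% higher in KO, 8.38% lower). Without both activated m3 libraries 7 genes were called (0.071%), with no member among them.

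**Figure D4:**
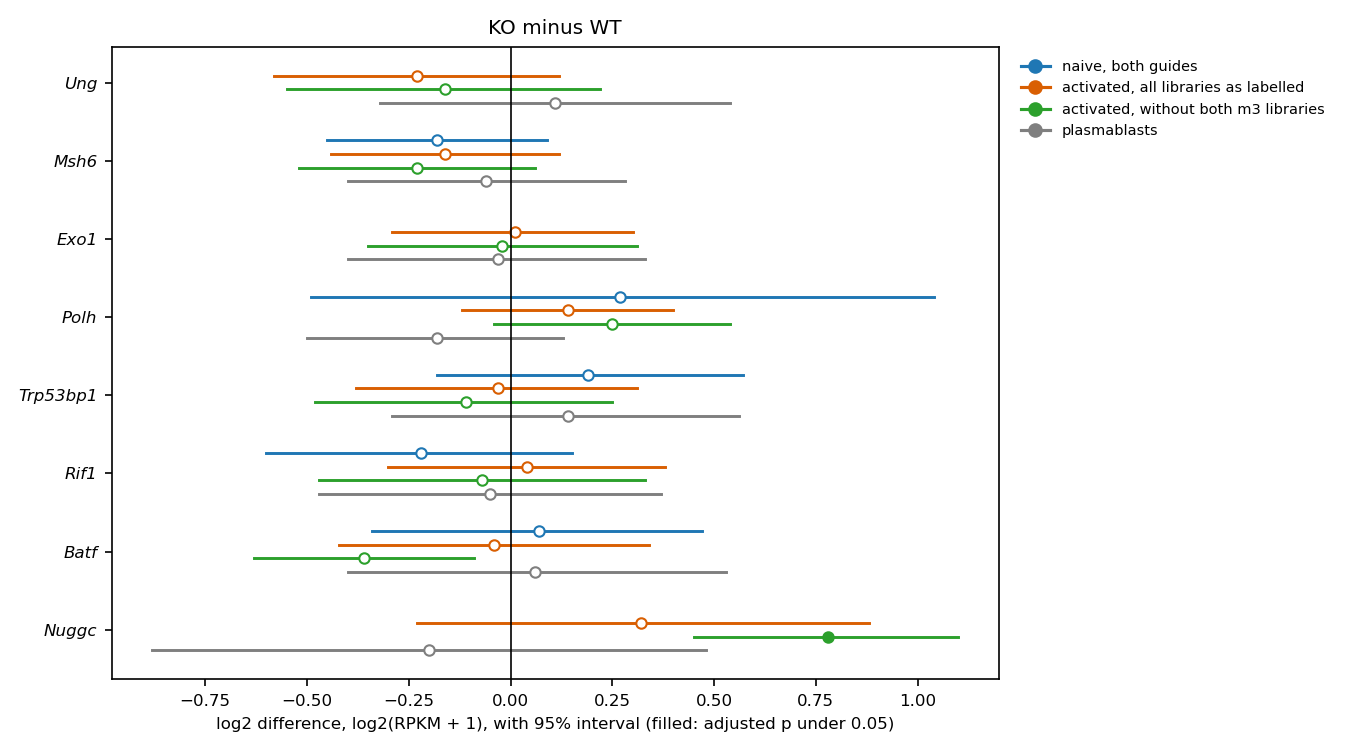
KO minus WT difference for each gene (horizontal axis, log2 scale of RPKM + 1) with its 95% interval, in naive cells over both guides, in activated cells with and without the m3 libraries, and in plasmablasts; filled points have an adjusted p under 0.05. The filled point is Nuggc in activated cells without the m3 libraries (0.78), and the Batf interval of that fit also lies below 0 but is not called.

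In naive B cells, 5 of the 8 members passed the filter of RPKM 1 or more in 2 libraries (Msh6, Polh, Trp53bp1, Rif1 and Batf), and none was called between KO and WT over both guides. Limma called 191 of 10137 genes (1.88%). Msh6 stood at 17.4 ± 1.81 RPKM in KO and 20.1 ± 4.12 in WT (SD, n = 6 each; difference -0.18, interval -0.45 to 0.09), Rif1 at 6.48 ± 1.76 and 7.57 ± 1.06 (-0.22, -0.60 to 0.15), and Batf at 27.2 ± 10.9 and 25.2 ± 5.99 (0.07, -0.34 to 0.47). Adjusted p-values of the 5 ran from 0.585 to 0.913 (limma). Batf had its highest naive level, 48.3, in KO guide 1 library A, and the other naive libraries held 14.9 to 32.8.

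Each guide was also compared with the WT cells of its arm, and again none of the 5 members was called, beside 113 genes with guide 1 (1.11%) and 3 with guide 2 (0.0296%). Limma called 0 genes for the difference between the guides (0%), 479 had an unadjusted p under 0.05, and members ran from -0.58 (Polh) to 0.07 (Msh6 and Rif1). Trp53bp1 was at 5.23, 8.60 and 6.72 RPKM in KO guide 1 A to C and 5.03, 4.52 and 4.91 in its WT, and at 5.10, 5.93 and 5.75 in KO guide 2 and 6.03, 3.62 and 8.18 in its WT. The guide 1 groups did not overlap, the guide 2 groups did, and the guide 1 difference of 0.41 (interval -0.12 to 0.94; adjusted p = 0.438, limma) was not called. Over all 11548 genes 17.2% did not overlap with guide 1 (7.39% higher in KO) and 13.5% with guide 2.

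Polh in naive cells turned on 1 library. It was at 0.080, 4.60 and 3.79 RPKM in KO guide 1 A to C and 1.13, 1.70 and 0.573 in its WT, and at 1.51, 3.24 and 2.26 in KO guide 2 and 2.55, 2.17 and 2.19 in its WT. KO guide 1 library A, where 1405 genes were listed at 0, gave 5 reads of Polh, and the other 2 KO guide 1 libraries stood above all naive WT libraries. The guide 1 difference was 0.56 (interval -0.52 to 1.64; adjusted p = 0.596, limma). Without that library it was 1.32 (adjusted p = 0.0253, limma), and without both A libraries of the arm, the WT one having 4.93 RPKM of Thy1, it was 1.33 (0.0448). With guide 2 it was -0.02 (interval -1.10 to 1.06). When 1 naive library at a time was left out, the number of all genes called with guide 1 ranged from 0 to 371, against 113 in the main fit.

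Ung and Exo1 were below the filter in naive cells and their differences were not called without it. Ung ranged from 0.244 to 0.911 RPKM over the 12 naive libraries and overlapped between KO and WT in both arms. Exo1 stood at 0.093, 0.370 and 0.217 in KO guide 2 A to C and 0.492, 0.848 and 0.812 in its WT, so all 3 KO libraries lay below all 3 WT ones, as did 6.41% of the listed genes. With guide 1 it was at 0.006, 1.11 and 0.593 in KO and 0.725, 0.551 and 0.859 in WT, with overlap, the lowest being library A with 1 read. With no filter the Exo1 difference was -0.48 with guide 2 (adjusted p = 1, limma) and -0.19 with guide 1 (0.715). Of the lists above, 3 of 18 transcription factor genes fell in naive KO cells over both guides, namely Irf8 (-0.61), Bach2 (-1.26) and Bcl6 (-0.57), and no gene of the cofactor, repair or joining lists was called. Most cycling markers had a negative difference in the same comparison. Of 17 replication markers tested 1 fell (Mcm5, -0.75, adjusted p = 0.0188, limma) and 1 had a positive difference (median -0.27). Of 17 G2/M markers none was called and 0 had a positive difference (median -0.59). With guide 1 alone the G2/M differences ran from -1.63 (Ccnb2) to -0.53 (Aurka). Their summed level was at most 16.7 RPKM in KO and at least 22.8 in WT of that arm. With guide 2 the differences ran from -0.65 (Bub1b) to 0.22 (Ccnb1), and the sums of KO and WT overlapped. The difference between the guides was not called for any G2/M marker. Over both guides, of 6 plasma cell markers tested Sdc1 fell (-1.49, adjusted p = 0.00313, limma), while 2 had a positive difference (median -0.13). Of 5 natural killer cell markers tested Prf1 rose (1.26, adjusted p = 0.00775, limma). It was the 1 with a positive difference, and the median was -0.37. The part of these in the members' values was not tested.

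The genes whose pattern lay closest to each member were found over the 10 cultured libraries as those with the smallest root mean square difference of log2(RPKM + 1), both centred on their mean. The points share libraries, depth and the 2 stages, so this describes shape alone. Closest to Batf were Napsa (0.06), Cdca7l (0.096) and Grap (0.11), with a median of 0.788 over all genes. Nuggc had less close neighbours than Batf, namely Saraf (0.178), Dusp14 (0.185) and Fndc3b (0.186), with a median of 0.863. The measure depends on how much a gene varies. The member's own SD was 0.88 for Batf, 0.83 for Nuggc, 0.36 for Msh6, 0.31 for Trp53bp1 and 0.28 for Rif1. Msh6 lay closest to Hnrnpu (0.096), the replication helicase gene Mcm4 (0.106) and Ptbp1 (0.108), with a median of 0.37. For Trp53bp1 they were Recql5 (0.046), Spg21 (0.057) and Ift52 (0.064), and for Rif1 Tep1 (0.078), Prdm4 (0.083) and Armc8 (0.084). The remaining members varied less, with an own SD of 0.21 for Ung, 0.12 for Exo1 and 0.18 for Polh, so a small difference says less there. Closest to Ung were Rara (0.095), Lpcat3 (0.098) and Samd10 (0.102). Exo1 lay closest to Tmem11 (0.06), Coq6 (0.068) and Cox19 (0.078), and Polh to Rbm45 (0.066), H2afv (0.074) and Spindoc (0.079).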

How the data were processed

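PolyA RNA of sorted spleen B cells was copied with SMART-seq v4 and tagged with Nextera XT, per the labels' protocols. The submitters' processing notes name STAR and mm10. The counting tool, annotation, versions and rule for listing genes are not given in the sources used here. The deposited values are RPKM, computed by the authors. Low values were whole multiples of 1 read (100% within 0.2), which gave the estimated reads. Depth limits precision for Ung, and for Exo1 and Polh in naive cells.

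Values were analysed as log2(RPKM + 1) with limma 3.58.1 (R 4.3.3, trend in the spread), for genes at RPKM 1 or more in at least 2 libraries. Naive and cultured libraries were fitted apart, with group means, and no test crossed tables. Cultured libraries under 1000000 reads were left out. Samples were grouped by the labels. P-values measure the spread between samples, which may be technical. The text names all 8 members, of each pathway list at most the 3 called genes with the smallest adjusted p, and Irf4 and Irf8. Results for some genes are not reported here. The members and lists were chosen with earlier results of these data known. Alternatives were a pseudocount of 0.1, no filter, rescaling, a replicate block, all libraries, and leaving libraries out. The fit was tested on simulated data. Coordinates are from RefSeq, overlaps from GENCODE M21.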

Additional observations from a re-analysis of the deposited data

How the results depend on the processing

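No difference changed sign after being called in any alternative. Of the log2 differences recomputed 1338 kept their side of the threshold, 18 became called and 40 lost a call. Uncalled differences among the 1338 could change sign, as Batf did in activated KO against WT (-0.47 to 0.10). The number of members called between WT plasmablasts and activated cells (4) was 1 with all 11 cultured libraries and 3 to 4 leaving out 1 library at a time. In KO cells (4) it was 1 with all 11 libraries, 2 on rescaled values and 2 to 5 leaving out 1 library. In activated KO against WT (0) it was 1 without both m3 libraries, and in that subset, in alternatives chosen after seeing the data, 1 with a pseudocount of 0.1, 1 without a filter, 1 with a replicate block, 0 rescaled and 0 to 1 leaving out a further library. In naive guide 1 (0) it was 1 without the A libraries of the arm and 0 to 1 leaving out 1 library. In naive cells over both guides, with guide 2, between the guides, in plasmablasts by genotype and for the stage difference between genotypes it was 0 in every alternative run.

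Of all genes, 3303 and 3033 called between stages in WT and KO became 176 and 344 with all 11 libraries, and ranged from 1657 to 3889 and from 1282 to 3371 leaving out 1 library. The 191, 113 and 3 called in naive cells (both guides, guide 1, guide 2) became 153, 60 and 0 with a pseudocount of 0.1 and 337, 180 and 26 without the A libraries of the guide 1 arm. Same-numbered libraries deviated together weakly (r from -0.105 to 0.176 in naive and -0.243 to 0.315 in cultured cells), so they were not treated as pairs. With the replicate block 4 members were called between stages in WT, where 3488 genes were, and the naive counts of genes were 200 over both guides and 0 with guide 2. In KO the block took Polh out (adjusted p = 0.0723, limma) and brought Trp53bp1 in (0.0214), and it changed no other call of a member with all libraries as labelled. Depth limits Ung, at 22 to 201 reads in cultured cells and 27 to 76 in naive ones, and in naive KO guide 1 library A also Exo1 (1 read) and Polh (5 reads).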
